A study of Mus musculus with 4 samples.

Results

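H2A.Z is a variant of histone H2A that a remodelling complex exchanges into nucleosomes, mostly at the nucleosomes that flank transcription start sites (TSSs) and at enhancers. ATACseq, in which the Tn5 transposase cuts accessible DNA, marks regulatory elements that are free of nucleosomes. Enhancers that hold H2A.Z therefore usually carry an ATACseq peak beside it. The peaks described here are those that lay far from genes and had no such peak nearby.

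They were chosen by 3 criteria from the H2A.Z peaks called in WT liver on chromosomes 1 to 19: a summit outside every gene of GENCODE vM21, more than 5 kb from the TSS of a gene of any type, and no WT ATACseq peak within 1 kb. Of 50665 WT H2A.Z peaks on these chromosomes, 11641 (23.0%) met them and are called the intergenic H2A.Z peaks below. The measured values that chose them were the WT H2A.Z and WT ATACseq peak calls, so the distance to a TSS over 5 kb and the lack of a WT ATACseq peak are not findings. WT mice were Uhrf1 fl/fl, and Uhrf1hepKO mice were Uhrf1 fl/fl;Alb:Cre, in which Cre under the albumin promoter deletes Uhrf1 in hepatocytes, so the other cells of the liver keep the gene. UHRF1 recruits the maintenance DNA methyltransferase to newly replicated DNA. Both livers came from male C57Bl/6 mice of 8 to 12 weeks, 1 mouse of each genotype. Each liver gave 1 H2A.Z library, made by chromatin immunoprecipitation and micrococcal nuclease digestion to mononucleosomes, and 1 ATACseq library, which makes 4 libraries. With 1 library per genotype and assay there is no replicate error and no p-value, intervals are 95% and cover counting error only, and genotype cannot be told apart from the individual mouse. In whole liver, fewer cells with H2A.Z at a site and less H2A.Z per cell cannot be told apart.

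The lists held 50665 WT and 46400 Uhrf1hepKO H2A.Z peaks and 10439 WT and 10636 Uhrf1hepKO ATACseq peaks on chromosomes 1 to 19. The read depth is unknown beyond what these lists show. The short ATACseq lists limit the labels: of 10 hepatocyte marker genes, the TSSs of 4 had WT H2A.Z within 5 kb and that of 1 had a WT ATACseq peak. Among 6 neuronal markers the counts were 2 and 0, among 4 striated muscle markers 0 and 0, and among 7 Kupffer cell markers 0 and 0. For other liver cells they were 2 and 1 of 5 cholangiocyte markers, 1 and 0 of 7 endothelial markers and 1 and 0 of 6 stellate cell markers. The lack of an ATACseq peak thus means that none was called at this depth, not that the DNA was closed.

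The sequences under 7 of these peaks are given as examples, chosen from the extremes of the group and not as typical of it. Each is the + strand of GRCm38 from the RefSeq genome, read from 100 bp before to 100 bp after the summit (201 bp), and is named by the nearest protein-coding gene. In the first 6, capitals mark CpG dinucleotides, the sites of DNA methylation in mammals. The Rab3d peak (chr9:21901401-21901601) and the Pogz peak (chr3:94821707-94821907) were among those with the highest fold enrichments of the group.
Rab3d: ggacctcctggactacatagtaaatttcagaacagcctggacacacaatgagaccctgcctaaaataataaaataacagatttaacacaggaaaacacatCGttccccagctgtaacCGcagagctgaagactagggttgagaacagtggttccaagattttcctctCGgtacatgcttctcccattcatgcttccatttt
Pogz: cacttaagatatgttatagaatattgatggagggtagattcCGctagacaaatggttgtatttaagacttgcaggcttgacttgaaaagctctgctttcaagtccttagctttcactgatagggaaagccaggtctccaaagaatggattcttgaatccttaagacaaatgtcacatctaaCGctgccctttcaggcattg
The Olig3 peak (chr10:19240248-19240448) and the Prex1 peak (chr2:166564452-166564652) were among the strongest without an Uhrf1hepKO H2A.Z peak.
Olig3: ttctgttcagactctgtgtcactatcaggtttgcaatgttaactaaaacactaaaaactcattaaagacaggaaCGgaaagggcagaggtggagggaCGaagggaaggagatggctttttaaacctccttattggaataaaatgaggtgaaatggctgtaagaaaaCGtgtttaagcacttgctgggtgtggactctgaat
Prex1: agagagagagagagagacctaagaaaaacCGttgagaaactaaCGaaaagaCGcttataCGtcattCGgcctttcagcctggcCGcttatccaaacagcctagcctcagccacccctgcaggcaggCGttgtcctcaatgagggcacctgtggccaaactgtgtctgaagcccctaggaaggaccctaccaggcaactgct
The Wwc2 peak (chr8:48016470-48016670) was the strongest with an Uhrf1hepKO ATACseq peak within 1 kb, and the Kcnd2 peak (chr6:20384338-20384538) lay farthest from any TSS of GENCODE vM21.
Wwc2: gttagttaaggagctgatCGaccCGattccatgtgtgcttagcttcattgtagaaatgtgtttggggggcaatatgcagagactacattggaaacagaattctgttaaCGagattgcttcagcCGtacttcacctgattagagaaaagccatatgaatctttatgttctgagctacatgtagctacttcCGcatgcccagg
Kcnd2: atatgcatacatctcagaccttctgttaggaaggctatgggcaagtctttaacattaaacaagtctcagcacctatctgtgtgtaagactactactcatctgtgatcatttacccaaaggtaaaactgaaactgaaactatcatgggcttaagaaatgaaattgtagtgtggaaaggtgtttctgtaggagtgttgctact
The Ppm1b peak (chr17:84895609-84895809) was the only one of the 11641 whose window held 3 of the 4 hepatocyte factor motifs searched for, and was chosen after its values were seen. Capitals here mark those motifs, from left to right C/EBP, FOXA and HNF1.
Ppm1b: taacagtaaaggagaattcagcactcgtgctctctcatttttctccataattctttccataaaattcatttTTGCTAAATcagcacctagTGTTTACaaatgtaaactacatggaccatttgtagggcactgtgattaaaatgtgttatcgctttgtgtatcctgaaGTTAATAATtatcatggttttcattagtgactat
These windows are not CpG islands: the number of CpGs was 3 for Rab3d, 2 for Pogz, 3 for Olig3, 7 for Prex1, 5 for Wwc2, 0 for Kcnd2 and 2 for Ppm1b.

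Fold enrichment is the pileup of H2A.Z fragments at the summit over the background that the authors' caller used, and whether a control library entered it is not given. The intergenic H2A.Z peaks were weaker and narrower than those of promoters. Their median fold was 4.63 (quartiles 3.95 and 5.85) and their median width 141 bp (quartiles 109 and 230 bp). The 26624 peaks within 5 kb of a TSS had a median fold of 5.61 and a width of 176 bp, and the 1331 intergenic peaks that passed the same distance criteria but had a WT ATACseq peak had 5.61 and 163 bp. The closest in both measures were the 9692 peaks inside genes, over 5 kb from a TSS and without an ATACseq peak, with 4.87 and 141.5 bp. Folds of the group ran from 1.88 to 15.4, and 502 peaks were wider than 500 bp. Fold values were in steps of 0.244 for 91.7% of the group, which would be the step of 1 fragment at a common background. If the caller added 1 to pileup and background, as MACS2 does by default, the median fold stands for about 18 fragments.
The criteria have no sharp edge in these values. The 550 peaks just inside the TSS limit (5 to 6 kb) and the 631 just outside it (4 to 5 kb) both had a median fold of 4.87 and a median width of 144 bp. The 81 peaks with an ATACseq peak at 1000 to 1500 bp had a median fold of 4.87, and the 156 with one at 500 to 1000 bp had 4.63.

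The density of these peaks was highest near genes and decreased with distance, although every peak near a TSS had been left out. Sequence that could have held such a peak, that is outside genes, over 5 kb from a TSS and over 1 kb from a WT ATACseq peak, is called eligible here and measured 1049 Mb, 43.8% of the sequenced bases of chromosomes 1 to 19. The group covered 0.216% of it, at 11.1 peaks per Mb. At 5 to 10 kb from the nearest protein-coding TSS there were 22.4 peaks per Mb (1230 peaks). The density was 17.8 at 20 to 50 kb, 9.84 at 100 to 200 kb, 4.23 at 500 to 1000 kb and 3.34 beyond 1000 kb, where 237 peaks lay. Their median distance to the nearest protein-coding TSS was 52257 bp (interval 50289 to 54137 bp), against 150006 bp over the eligible sequence. Of the group, 33.7% (32.9 to 34.6%) lay over 100 kb from a protein-coding TSS, where 58.9% of the eligible sequence lay. Upstream of the nearest protein-coding gene were 68.6% (67.7 to 69.4%) of the peaks and 62.2% of the eligible sequence.
The peaks near genes and those in gene deserts also differed in composition. CpGs per 100 bp of peak went from 1.41 at 5 to 10 kb to 0.54 beyond 1000 kb, and the median fold from 4.87 to 4.39. Among chromosomes, the density ran from 8.17 peaks per Mb on chromosome 12 to 14.4 on chromosome 19, a smaller range than that over distance.

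**Figure D1:**
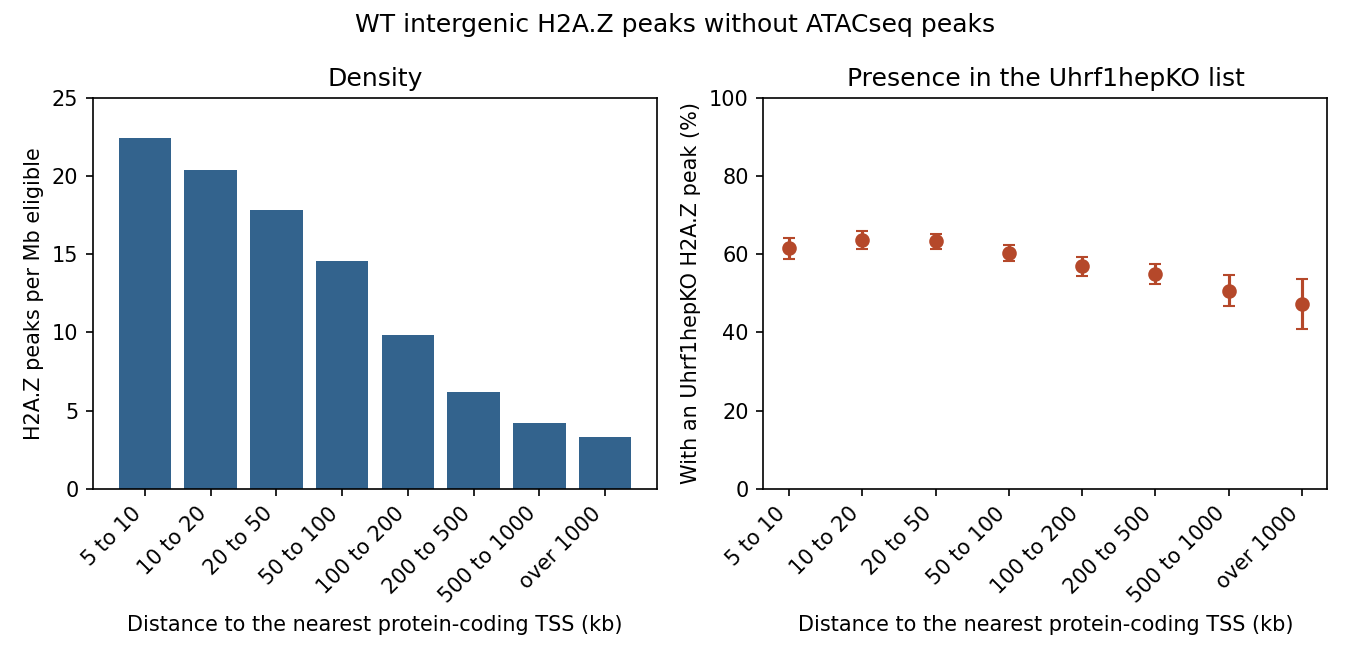
Left, intergenic H2A.Z peaks per Mb of eligible sequence in 8 classes of distance to the nearest protein-coding TSS (kb). Right, the percent of the same peaks overlapped by an Uhrf1hepKO H2A.Z peak, with Wilson 95% intervals. Density goes from 22.4 to 3.34 per Mb across the classes, and the share from 61.5% to 47.3%.

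Presence in the Uhrf1hepKO liver was asked for each peak. An Uhrf1hepKO H2A.Z peak overlapped 6953 of the 11641 intergenic H2A.Z peaks (59.7%, 58.8 to 60.6%), against 70.0% of all WT H2A.Z peaks. The share was 62.7% (61.8 to 63.7%) for the peaks in genes without an ATACseq peak, 78.4% (76.1 to 80.5%) for the intergenic ones with an ATACseq peak and 76.4% (75.9 to 76.9%) within 5 kb of a TSS. It followed the strength of the WT peak closely. Width differed with strength as well, with a median of 129 bp up to a fold of 4 and 302 bp above 8. At folds of 6 to 8 it was 203 bp, against 273 bp within 5 kb of a TSS. The part of width in the overlaps was not tested. Of the 2921 intergenic H2A.Z peaks with a fold up to 4, 31.5% (29.8 to 33.2%) were present in the Uhrf1hepKO list. The share was 50.3% at folds of 4 to 5, 72.0% at 5 to 6, 90.8% at 6 to 8 and 99.6% (98.9 to 99.9%) for the 767 peaks above 8.
At the same fold, the peaks in genes without an ATACseq peak had 33.7%, 52.2%, 69.6%, 91.1% and 99.6%, with intervals that overlapped those of the intergenic H2A.Z peaks in all 5 classes. Peaks within 5 kb of a TSS had higher shares in the lower 4 classes, 43.2% (41.6 to 44.9%) up to a fold of 4 and 94.2% (93.5 to 94.7%) at 6 to 8. Above 8 their share was 99.8% (99.7 to 99.9%).
Much of what was absent from the Uhrf1hepKO list was weak. The 4688 peaks without an overlap had a median fold of 4.14 and a median width of 116 bp, and the 6953 with one had 5.36 and 174 bp. Among the 4688, 27.0% (25.8 to 28.3%) had an Uhrf1hepKO H2A.Z peak within 1 kb and 13.9% (12.9 to 14.9%) within 200 bp.

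**Figure D2:**
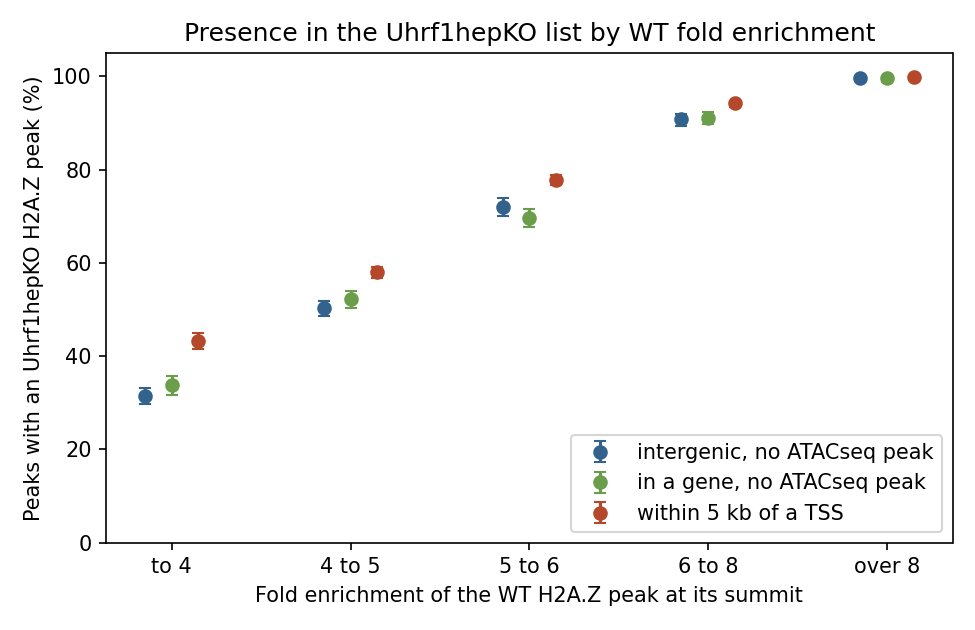
Percent of WT H2A.Z peaks overlapped by an Uhrf1hepKO H2A.Z peak in 5 classes of WT fold enrichment, for 3 classes of position, with Wilson 95% intervals. Intergenic H2A.Z peaks without an ATACseq peak go from 31.5% to 99.6%, with intervals that overlap those of peaks in genes in every class.

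The strongest peaks were in both H2A.Z lists. The highest WT fold was 15.4, at a peak of 436 bp located 16691 bp downstream of the TSS of Rab3d, which encodes a GTPase of regulated secretion. The Uhrf1hepKO list had a peak of fold 13.7 there, and neither ATACseq list had one within 1 kb. Another lay 15760 bp upstream of Pogz, a zinc finger gene, had a WT fold of 13.9 and an Uhrf1hepKO fold of 13.2, and was 1131 bp wide with 37 CpGs. Its summit was inside the RefSeq long noncoding RNA Gm40094, 700 bp from its TSS. A further 7 of the 10 strongest were nearest Tmem238l, Cd28, Bbs5, Minar2, Trps1, Lcor and Zfp352, with WT folds of 13.2 to 13.9, and each had an Uhrf1hepKO H2A.Z peak. Folds are not scaled between the lists and were not compared.
The strongest peak without an Uhrf1hepKO H2A.Z peak had a WT fold of 9.51 and a width of 121 bp. It lay 116185 bp upstream of Olig3, a transcription factor of the developing nervous system, and the nearest Uhrf1hepKO H2A.Z peak was 30397 bp away. The next were nearest Gm21915 (8.53), Prex1 (8.29), Eva1a (7.80) and Slc25a3 (7.80). The Eva1a and Slc25a3 peaks had an Uhrf1hepKO peak 226 and 201 bp away, and for the Prex1 peak the nearest was 148625 bp away.

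Few of these sites had an ATACseq peak in the Uhrf1hepKO liver. An Uhrf1hepKO ATACseq peak lay within 1 kb of 471 of the 11641 summits (4.05%, 3.70 to 4.42%), against 7.43% of all WT H2A.Z peaks without a WT ATACseq peak within 1 kb. In 133 of the 471 it overlapped the H2A.Z peak, and the median distance from the summit was 124 bp (quartiles 72 and 224 bp). The 471 sites shared 299 ATACseq peaks, and 6 sites had one that touched a WT ATACseq peak. The criteria hold that number low, since they leave no WT ATACseq peak within 1 kb of a summit. It is therefore not a finding. The Uhrf1hepKO ATACseq peaks at these sites had a median fold of 3.83, where the whole Uhrf1hepKO ATACseq list had 4.05. The share was 1.75% (1.33 to 2.29%) up to an H2A.Z fold of 4 and 9.13% (7.29 to 11.4%) above 8. For the peaks in genes without an ATACseq peak the share was 5.1% (4.68 to 5.55%). In that class it was 2.41% (1.82 to 3.2%) up to 4 and 7.89% (6.11 to 10.1%) above 8. An Uhrf1hepKO H2A.Z peak was present at 72.8% (68.6 to 76.6%) of the 471 and at 59.2% (58.3 to 60.1%) of the others. The 471 were also stronger in WT, with a median H2A.Z fold of 5.36 against 4.63 for the others. The part of fold in this difference was not tested.
The strongest of the 471 had a WT H2A.Z fold of 12.4 and lay 25646 bp upstream of Wwc2, a gene of the Hippo pathway. Its Uhrf1hepKO H2A.Z fold was 12.5, the Uhrf1hepKO ATACseq peak had a fold of 7.31 and began 74 bp from the summit, and the nearest WT ATACseq peak was 157643 bp away. The others named by the same order were nearest H2-M10.6 (12.2), Mboat1 (11.9), Serpinb8 (11.7) and 1190002N15Rik (11.5), with ATACseq folds of 3.52 to 5.92.
The same criteria applied to the Uhrf1hepKO lists gave a count of like size. Of 46400 Uhrf1hepKO H2A.Z peaks, 10851 (23.4%) were intergenic, over 5 kb from a TSS and without an Uhrf1hepKO ATACseq peak within 1 kb. A WT H2A.Z peak overlapped 64.2% (63.3 to 65.1%) of them, against 75.7% of all Uhrf1hepKO H2A.Z peaks. A WT ATACseq peak lay within 1 kb of 481 (4.43%, 4.06 to 4.84%), against 10.3% of the Uhrf1hepKO H2A.Z peaks without an Uhrf1hepKO ATACseq peak. Sites with an ATACseq peak in the other genotype alone were thus about as frequent in each direction, and by fold the overlap went from 33.2% up to 4 to 99.6% above 8, as in WT.

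Many of the peaks had a close neighbour, although fewer than near promoters or ATACseq peaks. The median distance to the next WT H2A.Z summit of any class was 3027 bp (interval 2777 to 3243 bp), with quartiles of 392 and 15702 bp, and 39.9% (39.0 to 40.8%) had one within 1 kb. That share was 71.4% (68.9 to 73.7%) for intergenic peaks with an ATACseq peak and 70.4% within 5 kb of a TSS. On average there was 1 peak of the group per 90075 bp of eligible sequence. The median gap between neighbours of the group was 22931 bp. This gap is a median and also crosses sequence that is not eligible, so it cannot be set against that mean.
Among 2614 neighbouring pairs less than 1 kb apart, the median gap was 361.5 bp (interval 355 to 367 bp). The fullest 20-bp class was 320 to 340 bp, with 204 pairs. The same class was fullest for the peaks in genes without an ATACseq peak, at a median gap of 353 bp (347 to 358 bp), while peaks within 5 kb of a TSS had 408 bp (403 to 413 bp). No gap was under 142 bp, and the peak caller's merging of nearby signal limits short gaps.
Joining peaks whose summits lay at most 1 kb apart gave 9026 groups: 7072 single peaks and 1954 clusters. Clusters had 2 to 7 peaks, and 492 peaks (4.23%) were in clusters of 4 or more. Single peaks had an overlap in the Uhrf1hepKO list in 51.6% (50.5 to 52.8%), pairs in 70.6% (68.9 to 72.2%) and triplets in 75.3% (72.7 to 77.6%). Median folds were 4.63, 5.12 and 5.12.
The largest clusters had 7 peaks each. The cluster of 2734 bp downstream of Sucnr1 (chr3:60167564-60170297) had summits 319, 591, 353, 751, 419 and 162 bp apart, WT folds from 4.14 to 10.2, and 6 of its 7 peaks in the Uhrf1hepKO list. The cluster of 2807 bp nearest Ddhd1 (chr14:46015569-46018375) had folds from 3.90 to 5.61 and 3 of 7. The Grsf1 cluster had 5 of 6 in the Uhrf1hepKO list, and the Far2 and Art2b clusters had 4 of 6 each. The Art2b cluster (chr7:101615078-101616885) was the most regular, with gaps of 300, 357, 340, 302 and 375 bp. None of these 5 clusters had an ATACseq peak of either genotype within 1 kb of a summit, and the nearest WT ATACseq peaks were 27656 to 256404 bp away.

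**Figure D3:**
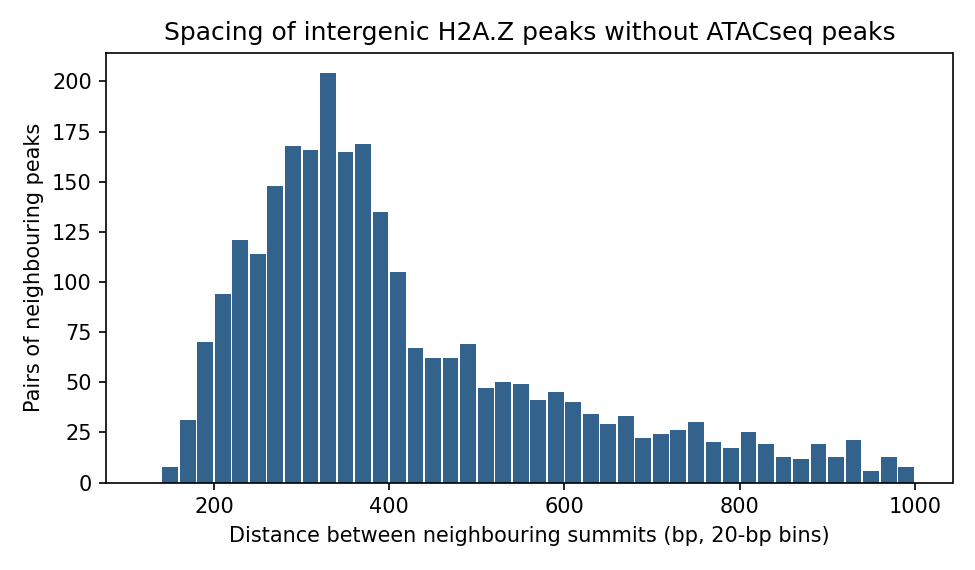
Distance between neighbouring summits of intergenic H2A.Z peaks (bp, 20-bp bins) against the number of pairs, for the 2614 pairs under 1 kb. The highest bar is 320 to 340 bp with 204 pairs, and no pair is closer than 142 bp.

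The peaks were spread over many genes. Of 20807 protein-coding genes, 4032 (19.4%, 18.8 to 19.9%) were the nearest gene of at least 1 peak, with a median of 2 peaks among them. The 20807 include 5975 genes that were nearest to no eligible sequence and so could not have a peak. There were 179 genes with 10 or more, which took 22.7% of the peaks. Pcdh20, a protocadherin of cell adhesion, had most, with 47 peaks over 2581 kb of eligible sequence, 22 of them in the Uhrf1hepKO list. Sucnr1, the receptor for succinate, had 44 peaks in 202.8 kb, which is 21.7 per 100 kb, and 27 were in the Uhrf1hepKO list. Adgrl2, a latrophilin, had 43 (27 in the Uhrf1hepKO list), and Mgat4c, an enzyme of N-glycan branching, had 42 (19).
Inhba, the activin subunit, had 40 peaks, 28 of them in the Uhrf1hepKO list. Pik3r1, the regulatory subunit of PI3 kinase, had 35 (26), all within 452597 bp of its TSS. Hpgd, which degrades prostaglandins, had 28 in 259.2 kb, of which 24 were in the Uhrf1hepKO list. The others were 1190002N15Rik (33, 19 in the Uhrf1hepKO list), Gprin3 (32, 17) and Cited2, a partner of CBP and p300 (30, 20). Uhrf1hepKO ATACseq peaks lay within 1 kb of 4 of the Adgrl2 peaks, 3 of those of 1190002N15Rik, 2 of Gprin3 and 1 of Cited2, and of none for the other 6 genes.

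**Figure D4:**
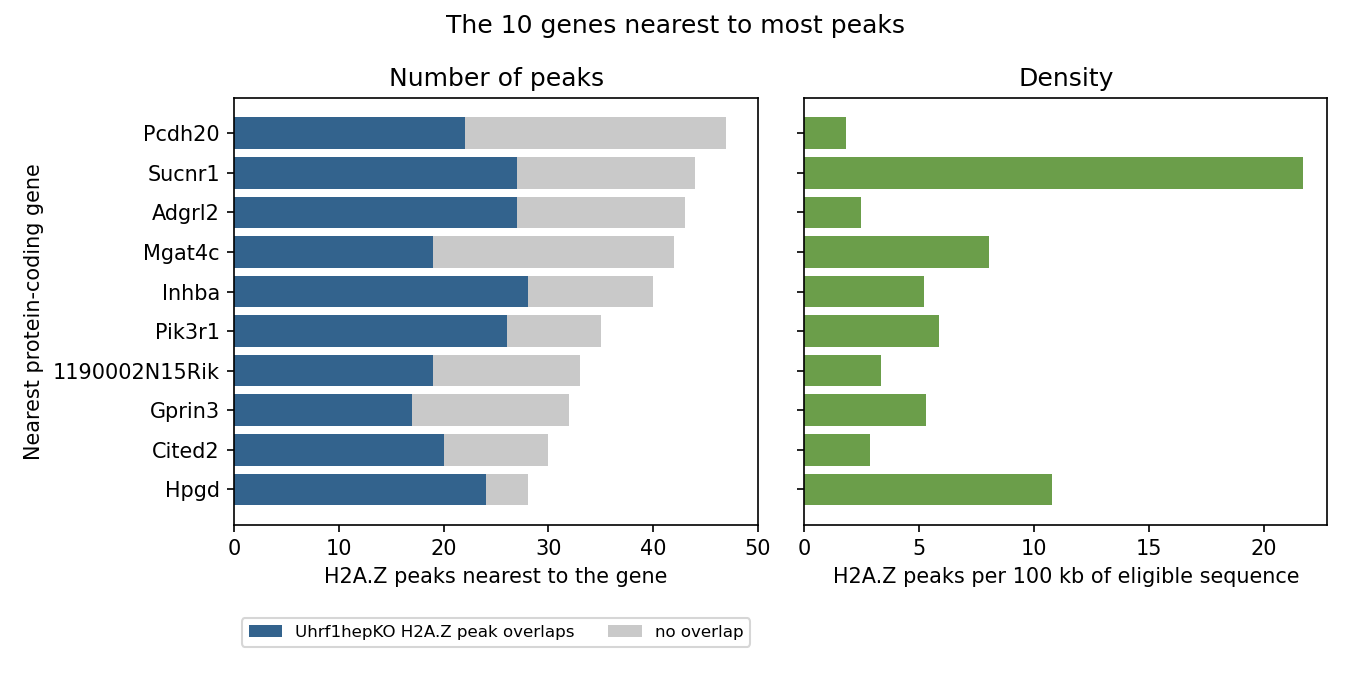
Left, the number of intergenic H2A.Z peaks nearest to each of the 10 genes with most, split into those with (blue) and without (grey) an overlapping Uhrf1hepKO H2A.Z peak. Right, peaks per 100 kb of eligible sequence nearest the gene. Pcdh20 has most peaks (47) and Sucnr1 the highest density (21.7 per 100 kb).

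Gene lists were described by the peaks nearest to their members. Because density depends on the distance to a TSS, each count is set beside the number that the eligible sequence of the list would hold at the overall density of its distance classes, called the standard count. Hepatocyte transcription factors had 82 peaks, against a standard count of 33.1, and 15 of 31 genes had at least 1. Nr5a2, the nuclear receptor LRH-1, had 17 peaks (8 in the Uhrf1hepKO list), Onecut1, or HNF6, had 14 (5), Gata6 10 (8) and the pioneer factor Foxa2 10 (5). Plasma protein and apolipoprotein genes had 40 against 18.8, but 9 of 61 genes (14.8%, 7.96 to 25.7%) had a peak, where 19.4% of all protein-coding genes did. Gc, the vitamin D binding protein, had 15 of these (6 in the Uhrf1hepKO list) and C6 of the complement 8 (4). Metabolic enzyme genes had 64 against 29.9, with 25 of 70 genes. Ugp2, which makes UDP-glucose, had 14 peaks (11 in the Uhrf1hepKO list) and Sqle of cholesterol synthesis 7 (5).
Growth factor and insulin signalling genes had 91 peaks against 45.1, with 21 of 34 genes. Ghr, the growth hormone receptor, had 19 peaks (13 in the Uhrf1hepKO list), Ppargc1a 17 (9), Trib1 12 (8) and Foxo1 8 (6). Immediate early and stress response genes had 56 against 25.1, with 17 of 30 genes. Btg1 had 15 peaks (8 in the Uhrf1hepKO list) and Klf6 8 (8). In the Uhrf1hepKO list were 40 of the 56 peaks (71.4%), against 59.7% of the whole group. Among the other lists with a peak, that share ran from 41.2% for synapse and neuronal adhesion genes to 77.8% for circadian clock genes. Whether any list differed from the group was not tested.
Lists of genes from other tissues had fewer peaks than their standard count. Synapse and neuronal adhesion genes had 136 against 273, although 30 of 46 had a peak, since their eligible sequence came to 46.6 Mb. Tenm2 had 21 of these (13 in the Uhrf1hepKO list) and Cdh9 14 (7). Olfactory and vomeronasal receptors had 116 against 439, and 53 of 1455 genes (3.64%, 2.80 to 4.73%) had a peak. Circadian clock genes, a list not tied to 1 tissue, also had fewer, 9 against 14.2.
The lists for other liver cells are small. Cholangiocyte genes had 22 against 9.20, of which Sox9 had 16, liver endothelium 6 against 3.37, stellate cells 6 against 8.60, and the 7 Kupffer cell genes 0 against 5.37. Neither the base composition nor the mappability of these neighbourhoods was matched, and their part in the counts was not tested.

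**Figure D5:**
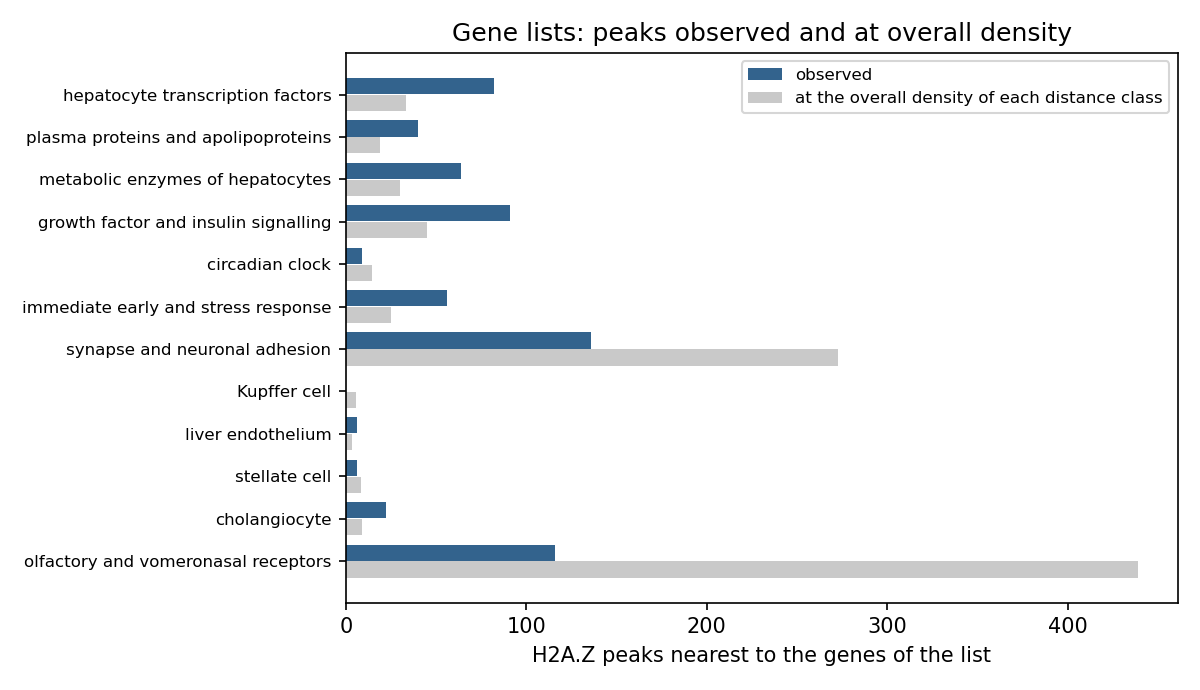
Intergenic H2A.Z peaks nearest to the genes of 12 lists (blue) and the standard count from the overall density of each distance class (grey). The lists of hepatocyte transcription factors (82 against 33.1), plasma proteins and metabolic enzymes stand above their standard counts. So do the growth factor (91 against 45.1), immediate early (56 against 25.1), cholangiocyte (22 against 9.2) and endothelium (6 against 3.37) lists. The synapse, receptor (116 against 439), circadian clock, stellate cell and Kupffer cell lists stand below theirs.

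Sequence under the peaks, pooled over all distances to a TSS, was richer in CpGs than the eligible sequence, without reaching that of promoters. There were 1.21 CpGs per 100 bp, against 0.695 over 1048557 windows of 201 bp that tile the eligible sequence every 1 kb. The values were 1.35 for peaks in genes without an ATACseq peak, 2.20 for intergenic peaks with one and 3.02 within 5 kb of a TSS. The GC content was 44.7% against 40.6%, and 17.4% of bases were in lower case, which marks repeats in this genome file, against 39.4%. Peaks with all bases in lower case numbered 247 (2.12%). The tiles were not matched to the peaks for repeats or for distance to a TSS. Peaks at 500 to 1000 kb from a protein-coding TSS had 0.66 CpGs per 100 bp and those beyond 1000 kb had 0.54. Both are below the value of all tiles, and tiles were not measured by distance.
CpGs varied among the peaks, and so did their presence in the Uhrf1hepKO list. Windows without a CpG made up 22.4% of the group (34.3% of the tiles) and those with 6 or more 7.61% (2.61%). An Uhrf1hepKO H2A.Z peak was present for 47.4% (45.5 to 49.3%) of the former, whose median fold was 4.39, and 70.4% (67.3 to 73.3%) of the latter, whose median fold was 5.12. Presence did not go on increasing with CpGs, since 27 of the 54 peaks with 12 or more were present (37.1 to 62.9%). Uhrf1hepKO ATACseq peaks were within 1 kb of 2.46% of the windows without a CpG and 8.01% of those with 6 or more.
Intergenic here means by GENCODE vM21, and RefSeq places some of the peaks in or near genes. Inside a RefSeq gene lay 1455 of the 11641 (12.5%, 11.9 to 13.1%) and 8.98% of the eligible sequence, and within 5 kb of a RefSeq TSS lay 1222 (10.5%, 9.95 to 11.1%) and 4.55%. The 9521 peaks outside both made up 81.8% (81.1 to 82.5%), and 58.8% (57.8 to 59.8%) of them were in the Uhrf1hepKO list. Within 1 kb of a RefSeq TSS lay 451 of the peaks (3.87%, 3.54 to 4.24%) and 0.88% of the eligible sequence. Those 451 had 1.99 CpGs per 100 bp, a median fold of 5.36, and 69.4% (65.0 to 73.5%) were in the Uhrf1hepKO list. The Pogz peak is among them, as is the Prex1 peak, whose summit was 30 bp from the TSS of the long noncoding RNA Gm29679. The Olig3 peak was inside the long noncoding RNA Gm40607, 3205 bp from its TSS.

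Motifs of 10 factors were searched on both strands in the 201-bp windows, and a match is a description of the letters, not of binding. The FOXA motif (TGTTTAC) was in 4.92% (4.54 to 5.33%) of the intergenic H2A.Z windows and in 3.02% of the tiles. It was in 2.85% (2.66 to 3.06%) of the windows within 5 kb of a TSS and 4.84% (4.43 to 5.28%) of those in genes without an ATACseq peak. HNF4A (CAAAGTCCA) was in 0.541% (0.423 to 0.692%) against 0.252% of tiles, and HNF1 (GTTAATNAT) in 1.05% (0.879 to 1.25%) against 0.768%. C/EBP (TTGCNNAAT) was in 2.14% (1.89 to 2.42%) against 2.31%. FOXA, HNF4A, HNF1 and C/EBP are all transcription factors of hepatocyte genes. The same letters read backwards were in 5.05% against 5.96% of tiles for FOXA, 0.189% (0.125 to 0.286%) against 0.175% for HNF4A and 0.576% against 0.794% for HNF1. Letters read backwards could also be more frequent than in the tiles, as for AP-1, with 6.37% (5.94 to 6.83%) against 4.87%. For C/EBP they were in 0.653% (0.522 to 0.816%) against 0.523%. The HNF1 letters were shortened after their share was seen, and the longer form was in 0.558% (0.438 to 0.711%) against 0.227%.
Other motifs were searched in the same way. CTCF, of whose motif the letters are not given, was in 0.704% (0.568 to 0.873%) against 0.825%. AP-1 (TGANTCA) was in 7.27% (6.81 to 7.75%) against 6.02%, but in 7.36% against 7.16% where under 50% of bases were lower case. In the same subset FOXA had 5.04% against 3.48%, HNF4A 0.56% (0.434 to 0.724%) against 0.306% and HNF1 1.11% (0.926 to 1.33%) against 0.925%. C/EBP was less frequent there than in the tiles, with 2.21% (1.95 to 2.51%) against 2.85%. The E-box (CACGTG) was in 2.0% against 1.71%, ETS (CCGGAAGT) in 0.292% against 0.0896% and SP/KLF (GGGGCGGGG) in 0.309% against 0.221%; these 3 were more frequent within 5 kb of a TSS, at 3.02%, 0.605% and 1.37%. The NFI motif, also without its letters here, was in 2 windows of the group.
Windows with a FOXA motif had an Uhrf1hepKO H2A.Z peak in 57.2% (53.2 to 61.2%) and those without in 59.9% (58.9 to 60.8%). For HNF1 the shares were 69.7% (61.0 to 77.1%) of 122 windows and 59.6% (58.7 to 60.5%). For C/EBP they were 50.6% (44.4 to 56.8%) and 59.9% (59.0 to 60.8%). Windows with an HNF4A motif had 57.1% (44.9 to 68.6%), AP-1 57.4% (54.1 to 60.7%) and the E-box 65.7% (59.4 to 71.5%). Those with ETS had 73.5% (56.9 to 85.4%) and SP/KLF 61.1% (44.9 to 75.2%). Folds were not compared between windows with and without each motif, so the part of peak strength in these shares was not tested. The share of all WT H2A.Z windows with each motif was 3.71% for FOXA, 0.462% for HNF4A, 0.732% for HNF1 and 1.90% for C/EBP.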

How the data were processed

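H2A.Z ChIPseq and ATACseq peaks of 1 WT and 1 Uhrf1hepKO liver were used. The authors used BWA-MEM for alignment to GRCm38.p4, then PICARD. They called peaks with MACS2 at a stated p-value of 0.05, broad for ATACseq, and 1 list is deposited per library. The largest q-value in the group was 0.0471, so whether that p-value alone limited the H2A.Z list is not known. The mode, version and control of the H2A.Z calls are not given in the sources used here. The deposited fold is a ratio of pileup to background, the deposited −log10 p- and q-values come from the same caller, the deposited score is 10 times the −log10 q-value, and the deposited summit is a distance in bp from the peak start. Nothing is scaled between libraries, and the depth is unknown.

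Peaks on chromosomes 1 to 19 were classified with GENCODE vM21. Overlaps needed 1 bp. Distances to ATACseq peaks were from summit to edge. Eligible sequence was measured on a grid of 100 bp. Shares have Wilson 95% intervals, medians have order-statistic intervals, and CpGs per 100 bp pool all bases of a class. Peaks are not replicates, and no test was run. The peaks, gene lists and motifs were chosen with earlier results of these data known. Named are the 10 genes nearest to most peaks, the genes nearest the 10 strongest peaks, the 5 strongest without an Uhrf1hepKO H2A.Z peak and the 5 strongest with an Uhrf1hepKO ATACseq peak, the 5 largest clusters, the 3 peaks farthest from a TSS, and up to 4 genes a list. Among the 10 strongest peaks, 1 is not reported here. Of 10 motifs first searched, CTCF and NFI are given without letters, and HNF1 was cut from 10 letters to 9, since runs of 10 or more letters are not printed here. This was done after their shares were seen, and it lowered the excess of HNF1. The steps were tested on simulated intervals and sequences. Python 3.11.15, numpy 2.4.6, pandas 2.3.3 and matplotlib 3.10.9 were used.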

Additional observations from a re-analysis of the deposited data

How the results depend on the processing

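With 1 library per genotype and assay, the spread between mice is unknown, and sites with too few fragments are missing from the lists. No paired analysis was possible because each genotype has 1 library per assay and the results come from no test. Measuring the ATACseq distance from the peak edges, or asking for none within 5 kb, left the number of peaks within 1.5 times (11622 and 11214) and the other 6 results within their counting intervals. The fold of the WT peak moved most. Keeping peaks of at least the median fold of all WT H2A.Z peaks left 4929, with 83.5% in the Uhrf1hepKO H2A.Z list, 6.03% near an Uhrf1hepKO ATACseq peak, 41806 bp to a protein-coding TSS, 1104 bp to the next summit, 1.37 CpGs per 100 bp and 12.2% of genes. With a q-value of at most 0.01, 61.1% were in the Uhrf1hepKO H2A.Z list. With over 10 kb to a TSS, the distances were 66590 and 3360 bp, CpGs 1.17 and genes 15.3%. With protein-coding genes alone setting intergenic, 61.0% and 4.44% were present, and the spacing was 2571 bp, CpGs 1.28 and genes 23.7%. Under 50% lower-case bases, 61.0% were present, with CpGs at 1.26 and genes at 18.2%. With RefSeq genes also left out, an alternative chosen after seeing the data, the distances were 55921 and 3367 bp, CpGs 1.14 and genes 16.6%.

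The rule for presence mattered too. An overlap of at least 50% of both peaks gave 44.2% in the Uhrf1hepKO H2A.Z list, and summits within 100 bp gave 50.3%. For ATACseq, an overlap of 1 bp gave 1.14% and a distance of 5 kb gave 7.53%. The next summit of another intergenic H2A.Z peak was 3543 bp away. The causes were not tested.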

Other observations

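The 3 peaks farthest from any GENCODE vM21 TSS lay 831065 to 1233010 bp from the nearest protein-coding TSS, of Kcnd2 or Cntnap5a. A pair of them, upstream of Kcnd2, a potassium channel gene, were 586552 and 502535 bp from any GENCODE TSS and 41135 and 134985 bp from the RefSeq pseudogene Gm52880, with WT folds of 4.14 and 5.12 and no CpG under the peak. The third, upstream of Cntnap5a, was 487612 bp from a GENCODE TSS and 411343 bp from a RefSeq one, had a fold of 4.14 and had another H2A.Z summit 160 bp away. None of the 3 had an Uhrf1hepKO H2A.Z peak, at a nearest distance of 88223 bp. Presence also differed with repeat content. The 1289 peaks with at least 50% of bases in lower case had an Uhrf1hepKO H2A.Z peak in 49.4% (46.7 to 52.1%) and a median fold of 4.39, against 58.9% (57.7 to 60.2%) and 4.69 for the 5863 with under 10%. The 4489 between these had the highest share, 63.7% (62.3 to 65.1%), with a median fold of 4.87, so there was no steady change with repeat content.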
